A study of Saccharomyces cerevisiae with 12 samples.

Results

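HAC1, IRE1 and TRL1, the genes of the core signalling route of the yeast unfolded protein response (UPR), are described here from the mRNA libraries of a *Saccharomyces cerevisiae* study of membrane protein synthesis. They were taken by name as 3 rows of a table of 6347 features, and KAR2 was set beside them as the readout of the pathway. Both strains were engineered from the laboratory strain D452-2 and carried the plasmid pRS316 with a GFP-tagged gene for cdt-1, a membrane-spanning cellodextrin transporter of *Neurospora crassa*. In the strain called NC the transgene has the fungal gene's own codons, and in the strain called OPT it is codon-optimized. Both strains express the foreign transporter, and no strain without it enters the comparison. A difference is therefore one between strains that carry different codon versions, and its cause was not tested. Cells were taken in mid-exponential growth, and each strain gave 3 mRNA libraries. Every value below is an mRNA level, since the 6 libraries of ribosome footprints are not analysed here.

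In the UPR, unfolded proteins in the lumen of the endoplasmic reticulum (ER) activate Ire1, a transmembrane kinase and endoribonuclease. Ire1 cuts the HAC1 mRNA on both sides of an intron that the spliceosome does not remove, and the tRNA ligase Trl1 joins the exons. The joined mRNA is translated into Hac1, a basic leucine zipper transcription factor that raises the transcription of ER folding genes, KAR2 among them, and also that of HAC1 itself. Trl1 is in addition the ligase that joins the cut exons of intron-containing tRNAs. KAR2 encodes the Hsp70 chaperone of the ER lumen and is the usual readout of the response.

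The table has 1 row per gene, so the uncut and the joined form of the HAC1 mRNA cannot be told apart in these values, and the activity of Ire1 or Trl1 is not measured. Levels are normalized RPKM (reads scaled to gene length and to the size of the library), which allows levels to be compared between genes per length. Reads in protein-coding genes were estimated at 23399800 to 42071100 per library, and values of each library added up to 999285 to 999421. NC replicate 3 stood apart from NC replicates 1 and 2 in the ER folding genes described here, and the differences of HAC1, KAR2, SIL1, EUG1, ERO1, DFM1 and DER1 are given without it too. Each codon version of cdt-1 has a row of its own, which was listed at 0 in all 3 libraries of the strain that carries the other version. The labels do not say whether replicates came from separate cultures, although the design text calls them biological, so p-values measure the spread between these samples. In bulk RNA, fewer cells that express a gene and less RNA per cell cannot be told apart.

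HAC1, the gene for the transcription factor, fell in OPT, while IRE1 and TRL1, the genes for the enzymes that process its mRNA, did not pass the test. HAC1 mRNA stood at 410, 404 and 579 RPKM in NC replicates 1, 2 and 3 and at 271, 290 and 283 RPKM in OPT replicates 1, 2 and 3. All 3 OPT libraries lay below all 3 NC libraries, and NC replicate 3 was far above the other 2. From a mean of 465 ± 99.2 RPKM in NC to 281 ± 9.88 RPKM in OPT (SD, n = 3), the level fell by 39.5%. On the log2(RPKM + 1) scale OPT minus NC came to -0.70, with 0.14 as its standard error and a 95% interval of -1.05 to -0.36 (limma adjusted p = 0.019). It was -0.53 without NC replicate 3 (adjusted p = 0.00432), but it no longer passed without OPT replicate 1, 2 or 3 (adjusted p = 0.0755, 0.0702 and 0.0659).

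IRE1, the gene for the sensor, was expressed at a low and almost level amount. Its mRNA stood at 18.2, 15.5 and 14.7 RPKM in NC and at 14.7, 15.8 and 15.2 RPKM in OPT. NC replicate 1 was the highest, and the other 2 NC libraries lay within the OPT range, so the groups overlapped. The means were 16.1 ± 1.82 and 15.2 ± 0.558 RPKM (SD, n = 3), and the log2 difference was -0.07 (standard error 0.09, limma adjusted p = 0.609). Its 95% interval ran from -0.29 to 0.14, or from 0.818 to 1.1 times the NC value of RPKM + 1. The interval leaves room for a difference of that size in either direction. The difference was 0.011 without NC replicate 1.

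TRL1, the gene for the tRNA ligase, stood at nearly the level of IRE1. Its mRNA was at 17.1, 16.1 and 13.3 RPKM in NC and at 14.0, 14.6 and 12.9 RPKM in OPT. NC replicates 1 and 2 were above every OPT library and NC replicate 3 was among them, so the groups overlapped. The means were 15.5 ± 1.97 and 13.8 ± 0.815 RPKM (SD, n = 3), with a log2 difference of -0.15, a standard error of 0.10 and a 95% interval of -0.40 to 0.10 (limma adjusted p = 0.358). Without NC replicate 3 the difference was -0.25 and passed the test (adjusted p = 0.043), at a setting where 32.6% of all features passed.

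Thus 1 of the 3 genes was called at an adjusted p under 0.05, against 19.1% of all 5982 yeast features tested and 13.8% that were called lower in OPT. The libraries of the strains did not overlap for 1 of the 3 either, HAC1, against 40.7% of all features, or 27.6% with OPT lower. Of all features, 5.38% were called higher in OPT and none of the 3 was. Among the 993 features with a mean of 10 to 25 RPKM, the range in which IRE1 and TRL1 lie, 10.8% were called. With NC replicate 3 left out, 2 of the 3 were called, and the share of all features rose to 32.6%. With OPT replicate 1, 2 or 3 left out none of the 3 was called, and 8.08, 6.04 and 8.78% of all features were.

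**Figure D1:**
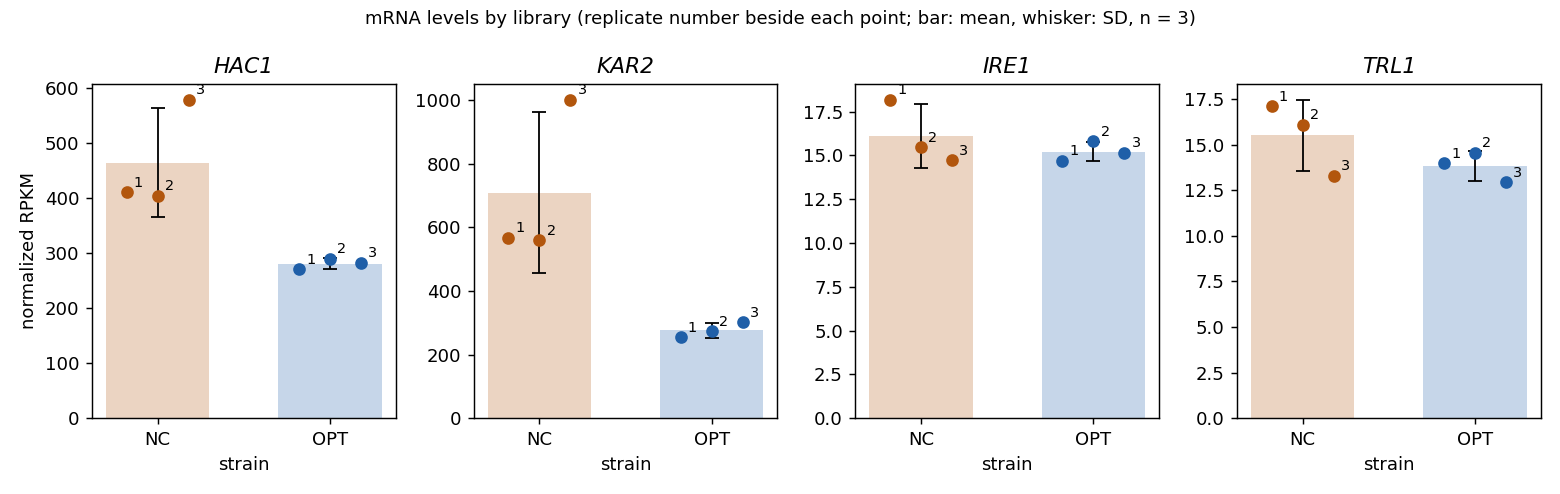
Normalized RPKM (vertical axes, each from 0) of HAC1, KAR2, IRE1 and TRL1 in the 3 NC and 3 OPT libraries; points are libraries with their replicate numbers, bars the strain means and whiskers the SD (n = 3). The OPT points of HAC1, at 271 to 290 RPKM, and of KAR2 lie below all NC points, and those of IRE1 and TRL1 overlap with NC.

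The 3 genes differed widely in level. Averaged over the 6 libraries, HAC1 mRNA reached 373 RPKM, above 91.7% of tested features, whereas IRE1 at 15.7 RPKM stood above 12.7% and TRL1 at 14.7 RPKM above 11.5%. Per length, HAC1 mRNA exceeded IRE1 mRNA by 22.6, 26.1 and 39.3 times in NC and by 18.4, 18.4 and 18.6 times in OPT. The ratio thus took nearly one value in the OPT libraries and spread widely in the NC libraries. The counting error estimated for IRE1 alone was 2.12 to 2.38% in the OPT libraries, more than these 3 ratios differ by. Their closeness therefore does not show that the ratio is fixed in OPT. The gene length that the authors used for HAC1 is not stated, and the size of its ratios to other genes depends on it. IRE1 and TRL1 were close to each other, with IRE1 at 1.06, 0.96 and 1.11 times TRL1 in NC and at 1.05, 1.09 and 1.17 times in OPT. IRE1 was the higher of the pair in 5 of 6 libraries, and in NC their difference was smaller than the spread of either.

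The spread between NC libraries was larger than that between OPT libraries for each of the 3. The coefficient of variation was 21.4% in NC and 3.51% in OPT for HAC1, 11.3 and 3.66% for IRE1, and 12.7 and 5.89% for TRL1, where the median of all tested features was 9.28% in NC and 5.04% in OPT. Read counts estimated from the values put the counting error at 0.809 to 1.03% per library for HAC1, 2.12 to 2.81% for IRE1 and 2.52 to 3.33% for TRL1.

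The readout KAR2 followed nearly the same order of libraries as HAC1, and a different one from IRE1 and TRL1. KAR2 mRNA stood at 567, 560 and 1002 RPKM in NC replicates 1, 2 and 3 and at 255, 274 and 302 RPKM in OPT replicates 1, 2 and 3. As for HAC1, every OPT library was below every NC library, and the order within NC was replicate 3, then 1, then 2 for both genes. Within OPT the lowest library was replicate 1 for both, but HAC1 was highest in replicate 2 and KAR2 in replicate 3. In NC replicate 3, HAC1 was 42.2% above the mean of NC replicates 1 and 2 and KAR2 was 77.8% above it. In the same library IRE1 was lower than that mean (-12.4%), as was TRL1 (-19.9%). The library with the most HAC1 and KAR2 mRNA was thus the lowest of the NC libraries in both enzyme genes.

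KAR2 was also lower relative to HAC1. Within a library, where scaling does not enter, KAR2 stood at 1.38, 1.39 and 1.73 times HAC1 in NC and at 0.943, 0.944 and 1.07 times in OPT. The groups did not overlap, and the log2 ratio was 0.58 ± 0.19 in NC and -0.02 ± 0.10 in OPT (SD, n = 3), a difference of -0.60. A two-sided exact permutation test gave p = 0.1, the smallest that this test can give for 3 against 3, so it cannot reach a p under 0.05 for any single ratio. With each of the 6 libraries left out in turn, the difference ran from -0.66 to -0.49.

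Relative to IRE1, both HAC1 and KAR2 were lower in OPT. The log2 ratio of KAR2 over IRE1 was 5.41 ± 0.60 in NC and 4.18 ± 0.12 in OPT, a difference of -1.23, which was -0.89 without NC replicate 3. That of HAC1 over IRE1 was 4.83 ± 0.41 and 4.21 ± 0.012 (SD, n = 3), a difference of -0.63, which was -0.39 without NC replicate 3. For HAC1 over TRL1 it was 4.89 ± 0.48 and 4.35 ± 0.09, a difference of -0.55, and -0.27 without NC replicate 3. In each of these 3 ratios the NC and OPT libraries did not overlap, and each gave p = 0.1 in the two-sided exact permutation test. Adjusted over the 4 tested ratios by Benjamini-Hochberg, each exact p was again 0.1. With OPT replicate 1, 2 or 3 left out, the exact permutation p was 0.2 for HAC1 over IRE1 and 0.3 for HAC1 over TRL1. For KAR2 over IRE1 it stayed at 0.1.

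**Figure D2:**
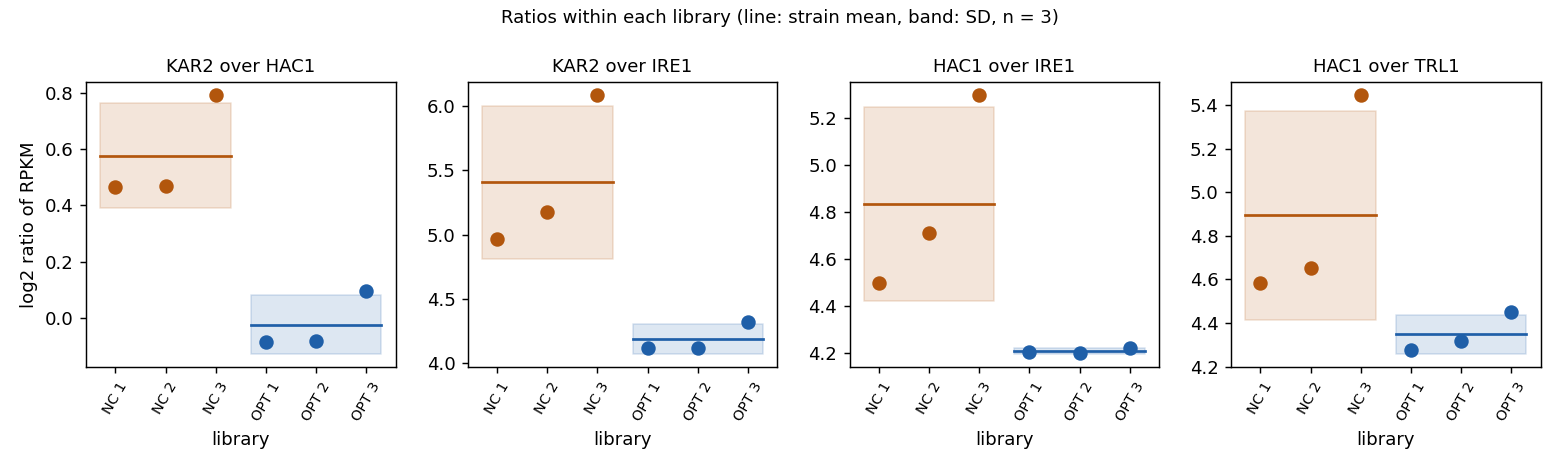
Log2 ratios of RPKM within each library (vertical axes, scaled to each panel) for KAR2 over HAC1, KAR2 over IRE1, HAC1 over IRE1 and HAC1 over TRL1; points are libraries, lines strain means and bands the SD (n = 3). In all 4 panels the OPT points lie below the NC points and NC replicate 3 is the highest. HAC1 over IRE1 has an SD of 0.012 in OPT, less than the counting error estimated for IRE1 alone would give.

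The 5 features whose pattern over the 6 libraries was most like that of HAC1 included its readout KAR2. By the Pearson correlation of log2(RPKM + 1) among the 5442 protein-coding features that averaged 10 RPKM or more, they were ALG6, a glucosyltransferase of N-glycan precursor synthesis (r = 0.997), ERO1, the ER thiol oxidase (0.997), LHS1, an ER chaperone that works with Kar2 (0.996), SGT2, a cytosolic cochaperone of tail-anchored protein delivery (0.995), and KAR2 (0.995). They shared the order of strains and the peak in NC replicate 3 but not the size of the change. ALG6 stood at 93.5, 89.0 and 114 RPKM in NC and 68.6, 71.8 and 71.8 in OPT, and SGT2 at 386, 386 and 415 RPKM against 352, 364 and 357. SGT2 was not called (log2 difference -0.15, limma adjusted p = 0.17). ALG6 was called lower (-0.47, adjusted p = 0.0203). It lost that call with equal library medians and without OPT replicate 1, 2 or 3 (adjusted p up to 0.0804). The correlation coefficients describe 6 libraries that fall into 2 strains, and they carry no test.

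IRE1 and TRL1 had other companions. The features most like IRE1 were NAM7, an RNA helicase of nonsense-mediated decay (r = 0.984), MPP10, of the small-subunit processome (0.977), SSB1, a ribosome-associated Hsp70 with a near-identical copy, which makes its value uncertain (0.97), PAB1, the poly(A)-binding protein (0.967), and DBP3, a helicase of ribosome synthesis (0.964). Most alike to TRL1 were CNS1, a cochaperone (0.995), TAE2, of ribosome quality control (0.993), PRP6, a splicing factor (0.991), and BMT2, an rRNA methyltransferase (0.991). None of these 9 was called with all libraries kept. Over the same libraries the coefficient with KAR2 was 0.127 for IRE1 and 0.195 for TRL1. Without NC replicate 3, CNS1, TAE2, PRP6 and BMT2 were called lower, as TRL1 was (limma adjusted p = 0.014, 0.025, 0.030 and 0.018). At that setting 32.6% of all features passed. CNS1 passed with array weights too (limma adjusted p = 0.0493), where 28.2% of all features did.

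**Figure D3:**
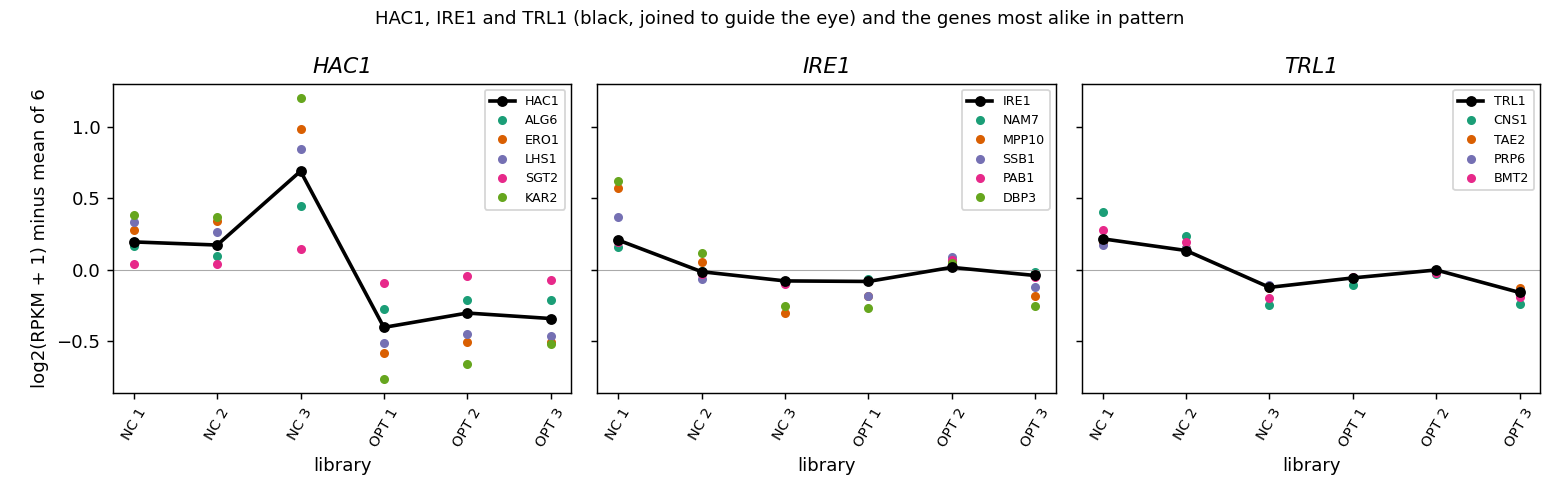
Log2(RPKM + 1) minus the gene's mean over the 6 libraries (vertical axis) for HAC1, IRE1 and TRL1 (black) and, for each, the 4 or 5 features described as most alike in pattern (coloured points), by library. HAC1 and its companions share a peak in NC replicate 3 and low values in OPT, whereas IRE1 and TRL1 are highest in NC replicate 1.

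No other RefSeq gene of build R64 overlaps any of the 3. HAC1 (YFL031W) lies on chromosome VI from 75179 to 76147, IRE1 (YHR079C) on chromosome VIII from 258244 to 261591 and TRL1 (YJL087C) on chromosome X from 270002 to 272485. By their systematic names TRL1 and ARG3, a much more abundant gene of arginine synthesis, converge with 186 nucleotides between them, and the use of strand in counting is not stated in the sources at hand. ARG3 stood at 849, 824 and 528 RPKM in NC and at 478, 478 and 400 RPKM in OPT, so that NC replicates 1 and 2 were highest and OPT replicate 3 lowest in both genes. A part of ARG3 reads in the TRL1 value was not tested. IRE1 converges with YHR078W, 225 nucleotides away, which stood at 45.4, 43.4 and 45.4 RPKM in NC and 35.2, 37.9 and 39.0 in OPT and does not share the high value of IRE1 in NC replicate 1.

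Genes known to act on Ire1 or on HAC1 gave no call, as IRE1 gave none. Of 18 such genes, among them the phosphatases PTC2 and DCR2, which act on Ire1, the kinases KIN1 and KIN2, and subunits of the Gcn5 acetyltransferase complex, limma called none, against 19.1% of all features, and 2 had an unadjusted p under 0.05. Their differences ran from -0.19 (PTC2) to 0.43 (GCN4) with a median of -0.04, where the median of all features was -0.06. The strains did not overlap in 5 of the 18, against 40.7% of all features. The most abundant were GCN4, which encodes the transcription factor of amino acid starvation that has been reported to act with Hac1, and YPT1, a Rab GTPase reported to bind the HAC1 mRNA. GCN4 mRNA stood at 1319, 1215 and 945 RPKM in NC and at 1515, 1563 and 1557 in OPT, with no overlap and NC replicate 3 lowest. Its log2 difference of 0.43 (standard error 0.13) did not pass (limma adjusted p = 0.0626) but did without NC replicate 1 or 3 (adjusted p = 0.0327 and 0.0392), with equal library medians (0.0386) and with array weights (0.0264). At these settings 16.8, 32.6, 16.1 and 28.2% of all features passed. YPT1 stood at 825, 905 and 947 RPKM in NC and 820, 774 and 828 in OPT (log2 difference -0.14, adjusted p = 0.268).

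The other route in which Trl1 works, tRNA splicing and the export steps around it, held 1 called gene of 9, or 11.1% against the 19.1% of all features. SEN34, a catalytic subunit of the tRNA splicing endonuclease, fell from 53.1, 50.6 and 44.8 RPKM in NC to 39.6, 33.9 and 34.5 RPKM in OPT. Its libraries did not overlap, and the log2 difference was -0.45 (standard error 0.09, limma adjusted p = 0.0183). That call was lost without NC replicate 2 or OPT replicate 2 or 3 (adjusted p up to 0.0862). The other 3 endonuclease subunits did not pass, with differences of -0.12 for SEN2, -0.09 for SEN15 and -0.11 for SEN54. TPT1, the phosphotransferase that removes the phosphate left at the ligated junction, stood at 78.9, 80.4 and 80.8 RPKM in NC and 72.2, 70.4 and 64.2 in OPT, without overlap (-0.21, adjusted p = 0.0619). The median of the 9 was -0.10. Without NC replicate 3, where 32.6% of all features were called, LOS1 and SEN54 were called lower and MSN5 higher beside SEN34. With all libraries MSN5 did not pass (0.26, limma adjusted p = 0.0534), though its libraries did not overlap. It was called higher without NC replicate 2 and with quantile normalization, equal library medians and array weights. At these settings 14.2, 17.1, 16.1 and 28.2% of all features were called.

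Downstream, the ER folding genes were lower with HAC1. Of 14 genes of chaperones and oxidative folding, KAR2 included, 12 fell and none rose, or 85.7% against 13.8% of all features that were called lower, with a median difference of -0.84. The list was chosen with earlier results of these data known, so this share is a description and not a test. The largest falls were those of SIL1, the nucleotide exchange factor of Kar2 (-1.55), KAR2 (-1.30), EUG1, a protein disulfide isomerase (-1.24), and ERO1 (-1.07). Without NC replicate 3, SIL1 stood at -1.22, EUG1 at -1.03 and ERO1 at -0.85, each called. The KAR2 difference (standard error 0.23, limma adjusted p = 0.0114) was -1.025 without NC replicate 3 and lost its call without OPT replicate 1 or 2 (adjusted p = 0.0533 and 0.0518). MPD2 and EPS1, both disulfide isomerase homologues, did not pass (-0.26 and 0.11). The libraries of MPD2 did not overlap. It was called lower without NC replicate 1 and with array weights (limma adjusted p = 0.0289 and 0.0348), where 10.9 and 21.1% of all features were. The HAC1 difference of -0.70 was smaller than the median of this list, and near those of PDI1 and SCJ1 (-0.70 and -0.69).

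ER folding genes also followed HAC1 in its highest library. NC replicate 3 held the highest of the 6 values in 11 of the 14 genes, against 21.2% of all tested features. In that library the median gene of the list stood 0.53 above the mean of NC replicates 1 and 2 on the log2 scale, where the median of all features was -0.06. In the regulators of Ire1 and HAC1, NC replicate 3 was the highest library in 2 of 18 genes, and in the tRNA splicing list in 2 of 9. The peak was not limited to folding genes, since NC replicate 3 was also the highest library in 8 of 14 degradation genes and in 8 of 10 inositol and phospholipid genes, with median genes 0.11 and 0.24 above NC replicates 1 and 2. What sets that library apart was not tested. Without NC replicate 3, again 12 ER folding genes fell, at a setting where 25.1% of all features were called lower. Without OPT replicate 1, 2 or 3 in turn, 9, 9 and 10 of them were called lower. The shares of all features called lower were then 5.55, 3.8 and 5.67%.

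ER-associated degradation and inositol-responsive genes, other branches tied to the UPR, were called about as often as all features. Of 14 degradation genes 2 fell, or 14.3% against the 13.8% of all features called lower, DFM1 (-0.71) and DER1 (-0.66), both derlin family genes of the ER membrane, and none rose, with a list median of -0.13. DFM1 stood at 115, 123 and 167 RPKM in NC and 76.3, 79.1 and 89.4 in OPT. HRD1, the ubiquitin ligase of the pathway, stood at 37.5, 45.2 and 58.6 RPKM in NC and 36.2, 34.4 and 36.8 in OPT and did not pass (adjusted p = 0.137), although its libraries did not overlap. Without NC replicate 3 the differences were -0.55 for DFM1 and -0.47 for DER1. DFM1 lost its call without OPT replicate 1 or 2 (adjusted p up to 0.0803). DER1 lost it without NC replicate 2 or any 1 OPT library, without a filter and under both other scalings (adjusted p up to 0.123).

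Among 10 genes of inositol and phospholipid synthesis and their regulators, 1 rose and 1 fell, close to the 19.1% of all features called in either direction. CHO2, a phospholipid methyltransferase, rose from 44.3, 53.2 and 46.8 RPKM in NC to 68.7, 66.2 and 60.6 in OPT (log2 difference 0.43, limma adjusted p = 0.0181). INO2, a transcriptional activator of these genes, fell from 29.2, 29.1 and 28.1 RPKM to 22.9, 25.1 and 25.0 (-0.24, adjusted p = 0.0412). CHO2 lost its call without OPT replicate 1 or 2 (adjusted p up to 0.0832), and INO2 lost it with equal library medians and without any library but NC replicate 3 (adjusted p up to 0.144). INO1, inositol phosphate synthase, whose expression depends on the UPR when inositol is scarce, stood at 26.3, 29.6 and 44.3 RPKM in NC and at 22.4, 24.7 and 34.1 in OPT. Its groups overlapped (adjusted p = 0.414), with the highest value of NC again in replicate 3.

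**Figure D4:**
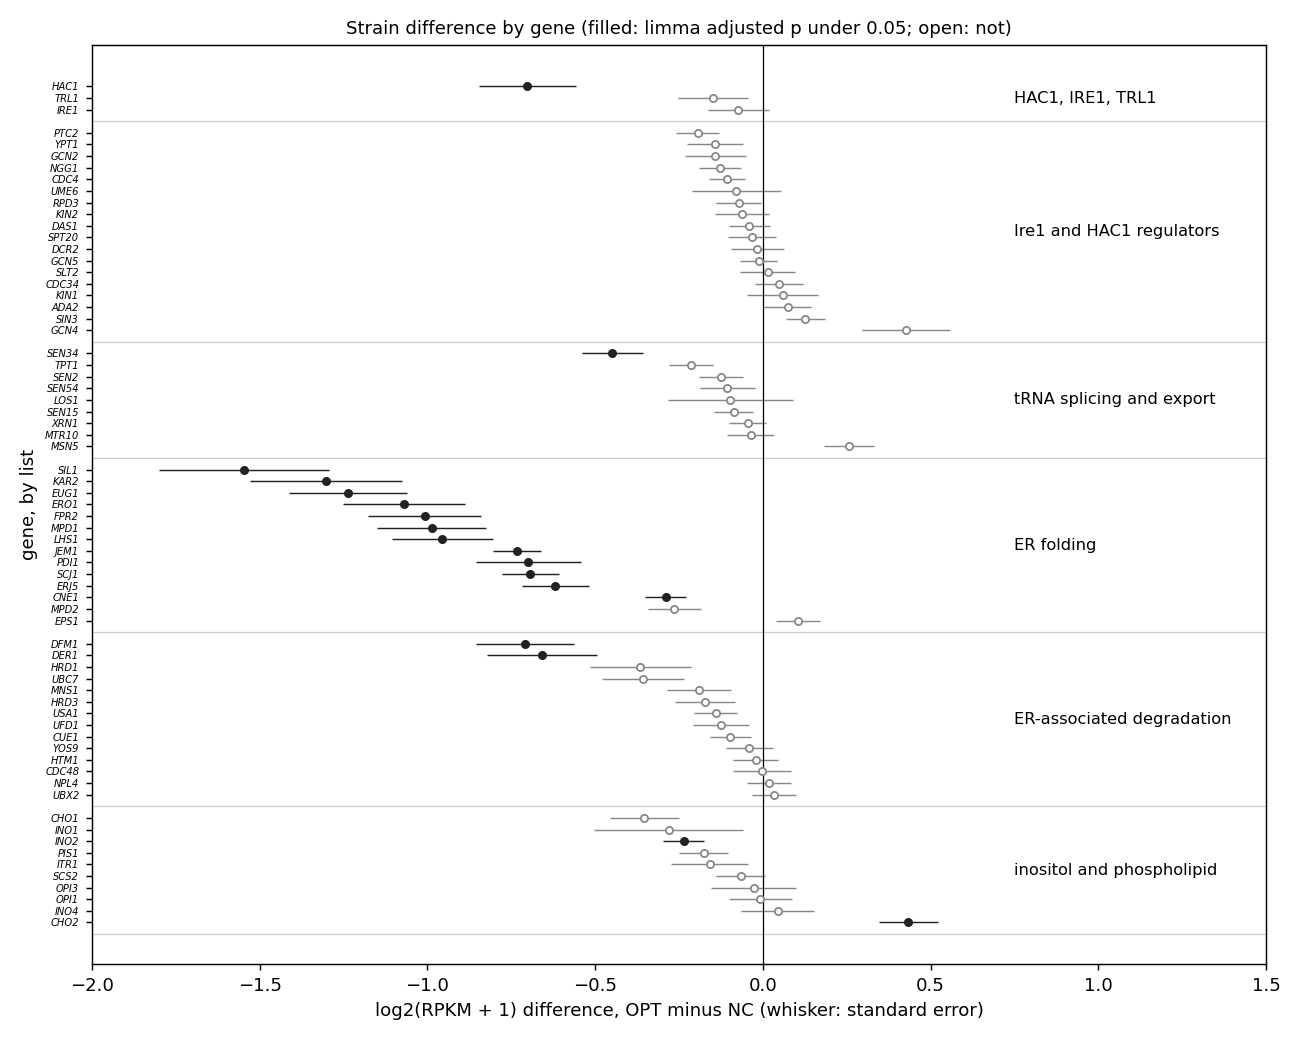
Difference in log2(RPKM + 1), OPT minus NC, of each gene (horizontal axis; whiskers are standard errors), for HAC1, IRE1 and TRL1 and the 5 lists; filled points passed limma's test at an adjusted p under 0.05. HAC1 lies at -0.70, IRE1 at -0.07 and TRL1 at -0.15; the ER folding genes run from -1.55 to 0.11 and the regulators from -0.19 to 0.43.

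HAC1 passed under each scaling tried, and IRE1 and TRL1 under none. Of 6 genes often used as references, the differences ran from -0.41 (TAF10, called lower) to 0.03, with a median of -0.05. With equal library medians HAC1 stood at -0.64 (adjusted p = 0.0432), IRE1 at -0.01 and TRL1 at -0.09.

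**Figure D5:**
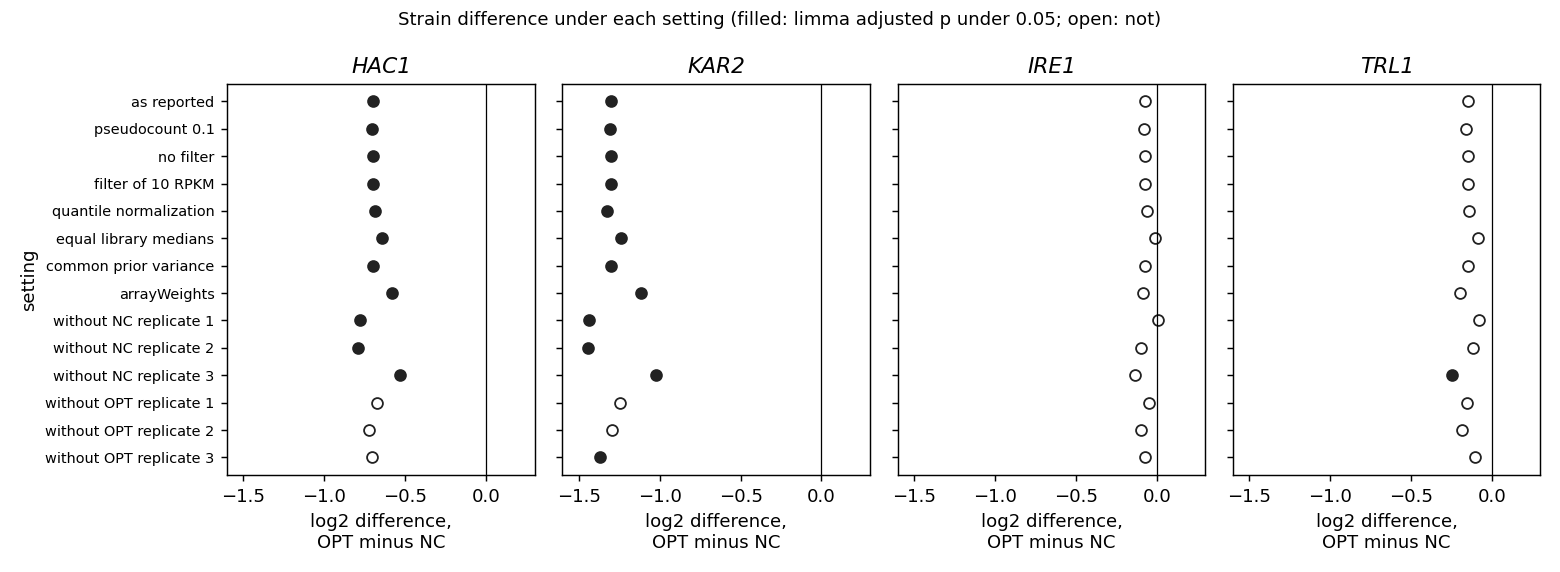
Log2 difference, OPT minus NC (horizontal axis), of HAC1, KAR2, IRE1 and TRL1 as reported and under 13 other settings (vertical axis); filled points passed limma's test at an adjusted p under 0.05. HAC1 ranges from -0.79 to -0.53 and is open without each OPT library, KAR2 is open without OPT replicate 1 or 2, IRE1 never passes, and TRL1 passes without NC replicate 3 only.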

How the data were processed

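The values, per the file headers, are the authors' normalized RPKM of each gene. The submitters' processing notes name build R64, CASAVA 1.8.0, Bowtie and TopHat. Counting, strand and normalization are not given in the sources used here. Columns were matched to samples by library name. Of 6351 lines, 3 emptied ones and 1 repeated row were left out. Reads were estimated from low values, which times RefSeq length are whole multiples of 1 step per library, with 98.2 to 100% of the 44 to 74 values used lying no further than 0.15 read from a whole number. They describe depth only. Differences are in log2(RPKM + 1), which understates low genes, tested with limma 3.58.1 in R 4.3.3 (trend, two-sided, no covariates) over features that averaged 1 RPKM or more, adjusted by Benjamini-Hochberg over all of them. Calls are those with an adjusted p under 0.05. Counts of calls leave out the 2 cdt-1 rows. The pipeline was run on simulated data with the same spread in both strains. That run does not show how the test performs with the wider NC spread found here. Named were HAC1, IRE1, TRL1 and KAR2, up to 4 called members of each list or else its 2 most abundant, and the 5 features most alike to each gene; 1 gene so named is not reported here, and other names were chosen after their values were seen. The members and lists were chosen with earlier results of these data known. Alternatives were a pseudocount of 0.1, no filter or one of 10 RPKM, quantile normalization, equal medians, a common prior variance, arrayWeights and each library left out. Figures and tables used Python 3.11.15.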

Additional observations from a re-analysis of the deposited data

How the results depend on the processing

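No paired analysis was possible because the labels number no replicates across strains. Leaving out 1 library at a time moved HAC1 between -0.79 and -0.53, KAR2 between -1.44 and -1.025, IRE1 between -0.13 and 0.011 and TRL1 between -0.25 and -0.078. The number called of HAC1, IRE1 and TRL1 ran from 0 to 2 and that of all features from 361 to 1953. By list it ran from 0 to 2 for regulators, from 0 to 4 for tRNA splicing genes and from 9 to 12 for ER folding genes. For degradation genes it ran from 0 to 3 and for inositol genes from 0 to 2. With equal medians 2 regulators (GCN4 and SIN3), 2 tRNA splicing genes, 1 degradation gene and 1 inositol gene were called. With arrayWeights 2 regulators and 2 tRNA splicing genes were called, with quantile normalization 2 tRNA splicing genes and 1 degradation gene, and without a filter 1 degradation gene. Wherever 2 tRNA splicing genes were called, they were SEN34, lower, and MSN5, higher. Of all features, 16.1% were called with equal medians, 28.2% with arrayWeights, 17.1% with quantile normalization and 17.2% without a filter. The cause of these changes was not tested. Of the uncalled genes, NAM7 changed sign with equal medians (0.024), and PAB1 with equal medians (0.020) and quantile normalization (0.024). With 1 library left out NAM7 ran from -0.091 to 0.034, MPP10 from -0.41 to 0.021 and PAB1 from -0.10 to 0.045. The ratios kept their direction. The exact permutation test of a single ratio cannot go below 0.1 with 3 libraries per strain, and the interval of IRE1 limits what its comparison can show.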

Other observations

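TAD2, the gene beside KAR2 on chromosome X, shared its pattern, and was picked out after its values were seen. Tad2 is a subunit of the tRNA adenosine deaminase that makes inosine at the wobble position, and by its systematic name the gene points away from KAR2, with 325 nucleotides between them. TAD2 mRNA stood at 33.2, 35.0 and 61.9 RPKM in NC replicates 1, 2 and 3 and at 20.2, 16.9 and 18.8 RPKM in OPT. The NC and OPT libraries did not overlap, and NC replicate 3 was again the highest. The log2 difference was -1.12 (standard error 0.23, limma adjusted p = 0.0181), -0.84 without NC replicate 3, and it did not pass without any 1 OPT library (adjusted p up to 0.0758). HCA4, on the other side of KAR2, stood at 45.5, 34.6 and 18.9 RPKM in NC and 25.2, 32.5 and 23.6 in OPT and had its lowest value in NC replicate 3.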
